A study of Rattus norvegicus with 17 samples.

Results

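Kinesins, cytoplasmic dynein and dynactin form the motor set that moves cargo along microtubules, and 47 of their genes were followed here across single neurons of the rat dorsal root ganglion. The members were all gene rows named Kif, Klc, Dync or Dctn with a unique molecular identifier (UMI, a tag that counts 1 captured RNA molecule) in at least 30 kept cells. They were 31 kinesin heavy chain genes, 3 kinesin light chain genes, 7 dynein genes and 6 dynactin genes. They stand against 55 rows that match the names and 32883 gene rows in all, of which 15010 had a UMI in at least 30 kept cells. The 8 rows below that limit (Kif14, Kif17, Kif18b, Kif19, Kif26a, Kif28p, Kif2b and Klc3) had a UMI in at most 20 cells and Kif2b in none.

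A sensory neuron keeps its nucleus in the ganglion and its endings in skin, muscle or viscera and in the spinal cord, so that most axonal protein has to be carried over a long distance. Kinesins walk mainly towards the microtubule plus end and take vesicles, mitochondria and cytoskeletal parts outward along the axon. Cytoplasmic dynein, with its activator dynactin, walks to the minus end and brings signalling endosomes, ageing organelles and injury signals back to the cell body. A further group of kinesins builds and moves the mitotic spindle, although several of its genes are also read in cells that no longer divide.

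The study concerns why subtypes of sensory neuron differ in how well their axons grow. Its authors picked single neurons from the L4 and L5 ganglia of both sides of naïve adult male Sprague Dawley rats with a mouth pipette and amplified their RNA with a modified Smart-seq2 protocol that tags RNA 3′ ends. The labels hold 17 batches of pooled cells in 1 group with no treatment, describe plating both for 15 min and for 72 h, and give neither the time nor the animal of a batch. The counts of batch 21 equalled those of batch 20, so 16 batches with 1040 cells were used, of which 967 with at least 2000 detected genes were kept.

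Cells were grouped by gates, that is, by the level of 1 or 2 genes, because the labels give no neuron type. The gates were Sst with Nppb (peptides of itch neurons), Trpm8 (the cold-activated channel), Clmp (an adhesion molecule), Th (tyrosine hydroxylase), Ntsr1 with Chrna3 (a neurotensin receptor and a nicotinic receptor subunit), Gzmbl3 with Lpar3 (a granzyme-like gene and a lysophosphatidic acid receptor), Nmu with Lad1 (neuromedin U and ladinin) and Pvalb with Vsnl1 (calcium-binding proteins). Exactly 1 gate was met by 467 cells, 68 cells met several and 432 met none. UMIs were summed per batch and gate where a batch held at least 3 cells, which gave 9 sums for Sst+Nppb, 4 for Trpm8, 15 for Clmp, 3 for Th, 12 for Ntsr1+Chrna3, 7 for Gzmbl3+Lpar3 and 3 for Nmu+Lad1. These 53 sums held 318654 to 7205280 UMIs. Levels below are CPM of such sums, that is, UMIs scaled to a common total, with TMM factors. Each fold change is the gate minus the mean of the other 6 gates, fitted with edgeR's quasi-likelihood test with batch as a term. The p-values were adjusted over 12072 genes, and calls are counted over the 12059 that are not gate genes. A batch counts as higher or lower by the gate's log2 level against the mean log2 level of the batch's other gates. Nothing in the labels ties a batch to an animal of its own. The p-values hence measure the spread between sums, which may be technical. Cells of 1 batch and gate share a library and are not counted as separate replicates of each other. In the added fit with sums of at least 1 cell, given below, a sum can be a single cell.

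Markers that had not defined the gates fitted some of them and not others. Osmr, an itch cytokine receptor subunit, was at 95.6 CPM over all Sst+Nppb cells and at most 30.6 CPM in any other gate, but Il31ra was at 3.14 CPM and Cysltr2 and Htr1f were at 0 CPM in Sst+Nppb cells. Foxp2 was at 29.1 CPM and Rarres1 at 123 CPM in Trpm8 cells, with Gpr26 at 0 CPM. Clmp cells carried Kit at 215 CPM. In contrast, Mrgprd, the usual receptor of non-peptidergic nociceptors, was at 0.526 CPM in Gzmbl3+Lpar3 cells, though lower still in every other gate. Lpar5, also checked for this gate, had 0.526 CPM. Plxnc1 (69.8 CPM) was highest in this gate, but Ntsr1+Chrna3 cells had 65.4 CPM. P2rx3 (427 CPM) came below Ntsr1+Chrna3 cells (438 CPM), and Scn11a (32.9 CPM) below Trpm8 cells (37.8 CPM). In Ntsr1+Chrna3 cells Crh had 23.9 CPM, below the 122 CPM of Gzmbl3+Lpar3 cells. Atp2b2 had 146 CPM in Nmu+Lad1 cells, 157 CPM in Pvalb+Vsnl1 cells and at most 20.4 CPM elsewhere. In Th cells Slc17a8, the vesicular glutamate transporter known from touch-sensitive C fibres, was at 0 CPM, and Tafa4 at 3.00 CPM there and at 15.5 CPM in Nmu+Lad1 cells. The gates are therefore called by their genes and given no cell type name. Cells also differed in depth, with a median of 398108 UMIs in Gzmbl3+Lpar3 cells, 362574 in Nmu+Lad1 cells and 286241 in Ntsr1+Chrna3 cells, and 168051 to 218378 in the other 4 fitted gates. The summed level of 9 glial markers lay between 760 and 1483 CPM over the sums of the 7 gates, most of it Pmp22.

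The motor genes took a median of 0.882% of a cell's UMIs over all kept cells, with a 10th percentile of 0.660% and a 90th of 1.08%. By gate the median share was 0.844% in Sst+Nppb, 0.926% in Trpm8, 0.940% in Clmp, 0.912% in Th, 0.914% in Ntsr1+Chrna3, 0.834% in Gzmbl3+Lpar3 and 0.874% in Nmu+Lad1 cells. Each of these medians lay between the 10th and the 90th percentile of every other of these gates. The levels compared between genes here are 3′-end UMI counts, which carry no length term, and differences in capture between genes were not tested. Klc1 had the highest mean over the 53 sums, 733 CPM, and a UMI in all 967 kept cells. It was followed by Kif5a (676 CPM), Kif5c (646 CPM), Kif1b (583 CPM), Dync1i2 (538 CPM), Dctn2 (523 CPM) and Kif22 (521 CPM). The given markers of the set, Kif1a and Kif3a, averaged 449 and 376 CPM. Kif12, Kif24, Kif6 and Kif7 stayed below the count filter and were not tested, which leaves 43 members.

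Of these 43, 14 differed among the 7 gates by the F-test of all gates together at an adjusted p under 0.05 (32.6%), beside 29.0% of all 12059 genes. The 14 were Kif5a, Klc1, Klc2, Klc4, Kif1a, Kif3c, Kif13b, Kif16b, Kif22, Dctn1, Dync1i1, Dync1li2, Dync2h1 and Dync2li1. The share lay near that of all genes. With each of the 16 batches left out in turn, Dctn1, Dync1i1, Kif16b, Kif22 and Kif3c passed in all 16 fits and Kif13b in 15. Kif5a passed in 13, Dync2h1 in 12, Dync2li1 and Klc1 in 10, Klc4 in 9, Kif1a in 8 and Klc2 and Dync1li2 in 7. Single contrasts called 4 members in Sst+Nppb (3 higher, 1 lower), 4 in Clmp (3 higher, 1 lower) and 5 in Gzmbl3+Lpar3 (2 higher, 3 lower). For Sst+Nppb that is 9.3% of the members, beside 12.4% of all genes (7.38% higher, 5.0% lower). For Clmp it is 9.3%, beside 11.9% of all genes (7.71% higher, 4.2% lower), and for Gzmbl3+Lpar3 11.6%, beside 8.92% (5.37% higher, 3.56% lower). The contrasts share their sums, so their calls are not independent of each other. No member was called in Trpm8 (0.44% of all genes), Th (0.0%), Ntsr1+Chrna3 (2.05%) or Nmu+Lad1 (1.9%), where 6, 4, 2 and 1 members had an unadjusted p under 0.05. DESeq2 and limma voom called none in these 4 gates either. For Th, where edgeR called no gene at all, 1156 of the 12059 genes had an unadjusted p under 0.05, and DESeq2 called 67 genes and limma voom 1.

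**Figure D1:**
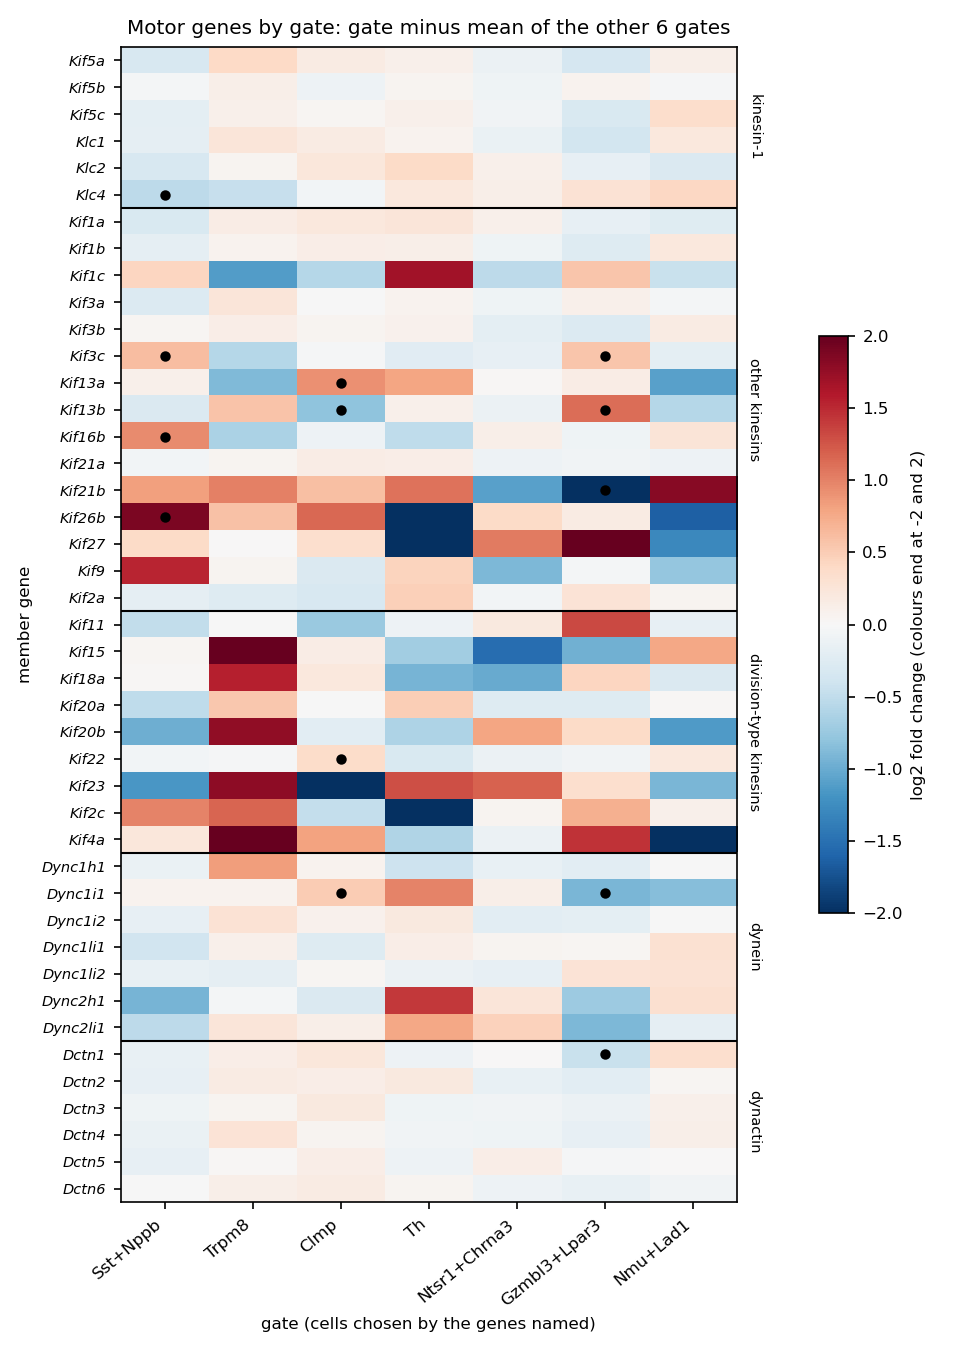
Fold change of the 43 tested motor genes in each gate, as the log2 of the gate minus the mean of the other 6 gates, with colours that end at -2 and 2 and rows grouped by role. Black dots mark adjusted p under 0.05; they stand in the Sst+Nppb, Clmp and Gzmbl3+Lpar3 columns, while the strong colours of low members such as Kif4a and Kif23 carry none.

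Kinesin-1, the main outward motor, pairs 2 heavy chains of Kif5a, Kif5b or Kif5c with light chains that bind cargo adaptors. Kif5a differed among the gates (adjusted p = 0.0167), with means from 895 CPM in Trpm8 to 544 CPM in Gzmbl3+Lpar3 sums, and no single gate was called. The 4 Trpm8 sums had 537, 847, 964 and 1233 CPM. The Gzmbl3+Lpar3 sums ran from 469 CPM through a median of 530 CPM to 613 CPM, so the groups overlapped. Kif5b, the form found in most tissues, lay between means of 584 CPM in Trpm8 and 435 CPM in Nmu+Lad1 sums (adjusted p = 0.910). Kif5c, a neuronal form, lay between 780 CPM in Nmu+Lad1 and 532 CPM in Gzmbl3+Lpar3 sums (adjusted p = 0.178).

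The balance of the 3 forms also varied by gate. Kif5b made up 32.6% ± 1.99 of Kif5 UMIs in Gzmbl3+Lpar3 sums (SD, n = 7, 30.2 to 35.6%), against 24.6% ± 1.86 in Clmp sums (n = 15, 20.6 to 28.2%). The ranges of these gates did not overlap, but the share was not tested. Kif5a took 34.1% ± 1.83 in Gzmbl3+Lpar3 and 39.6% ± 1.86 in Clmp sums. No Kif5 gene took more than 43.3% in any sum.

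Of the light chains, which tie kinesin-1 to cargo, Klc1 made up 72.2 to 80.0% of Klc UMIs as gate means. Klc1 had 584 ± 108 CPM in Gzmbl3+Lpar3 sums (SD, n = 7) and was lower there than the mean of the other gates in 7 of 7 batches. That contrast missed the threshold by a small margin (log2 fold change -0.36, adjusted p = 0.052), while the F-test over all gates passed (adjusted p = 0.0220). Klc2 (adjusted p = 0.0369) had its highest mean in Th sums, at 228 CPM, and its lowest in Gzmbl3+Lpar3 sums, at 153 CPM. Klc4, a low light chain, fell in Sst+Nppb sums by 0.52 ± 0.16 on the log2 scale (SE, adjusted p = 0.0302). Klc4 had 21.0, 38.4 and 47.2 CPM as lowest, median and highest of 9 Sst+Nppb sums, and was lower than the mean of the batch's other gates in 8 of 9 batches. In the other gates its means ran from 34.5 CPM in Trpm8 to 71.3 CPM in Nmu+Lad1 sums. The Klc4 call did not hold in cells thinned to 20000 UMIs (-0.13, adjusted p = 0.907), and it was lost without any of 6 single batches (20, 25, 26, 28-3, 29 and 35). It was lost as well with no filter on low counts (adjusted p = 0.184), with at least 5 cells per sum (adjusted p = 0.0841) and with sums of at least 1 cell (adjusted p = 0.0627), so it held in 19 of 29 alternatives.

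In Sst+Nppb sums 3 kinesin heavy chains were called higher, Kif16b, Kif3c and Kif26b. Kif16b, a kinesin-3 that moves early endosomes, rose by 0.94 ± 0.15 on the log2 scale (SE, adjusted p = 1.63e-05) and was higher in 9 of 9 batches. Kif16b had 84.0, 101 and 151 CPM as lowest, median and highest of the 9 Sst+Nppb sums. The 4 Trpm8 sums had 28.2, 34.2, 58.6 and 63.0 CPM, the 3 Th sums 46.8, 54.7 and 85.2 CPM and the 3 Nmu+Lad1 sums 52.2, 67.9 and 138 CPM. Lowest, median and highest were 32.5, 56.7 and 142 CPM in Clmp, 40.0, 78.1 and 113 CPM in Ntsr1+Chrna3, and 39.6, 64.1 and 81.0 CPM in Gzmbl3+Lpar3 sums. Every Sst+Nppb sum was thus above every Trpm8 and Gzmbl3+Lpar3 sum, and single Clmp, Th, Ntsr1+Chrna3 and Nmu+Lad1 sums reached into its range. The Kif16b call held in 29 of 29 alternatives, with log2 fold changes of 0.60 to 1.07.

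Kif3c, a kinesin-2 subunit that pairs with Kif3a and has been reported to support regrowth of sensory axons, rose in Sst+Nppb sums by 0.62 ± 0.15 (SE, adjusted p = 0.00256). Kif3c had 71.5, 154 and 174 CPM as lowest, median and highest of 9 Sst+Nppb sums and was higher in 8 of 9 batches. It also rose in Gzmbl3+Lpar3 sums by 0.55 ± 0.17 (adjusted p = 0.0296), with 118, 127 and 160 CPM and 7 of 7 batches higher. The Trpm8 sums had 36.5, 59.6, 65.9 and 105 CPM, the Th sums 76.3, 81.9 and 95.8 CPM and the Nmu+Lad1 sums 52.2, 80.0 and 139 CPM. Clmp sums ran from 62.5 to 133 CPM and Ntsr1+Chrna3 sums from 49.3 to 164 CPM. Each Gzmbl3+Lpar3 sum thus lay above every Trpm8 and Th sum, while 2 Sst+Nppb sums, at 71.5 and 101 CPM, lay below the highest Trpm8 sum. The Sst+Nppb call was lost with larger sums. In the 6 of 9 sums that hold at least 5 cells, and with Th, Trpm8 and Nmu+Lad1 out of the fit, the log2 fold change was 0.02 (adjusted p = 0.968), and it was 0.24 with a gate threshold of 20% of the 99th percentile (adjusted p = 0.464) and 0.40 in thinned cells (adjusted p = 0.385). Without batch 25 its adjusted p was 0.0541. The Gzmbl3+Lpar3 call was lost without batch 20, 24 or 28-3 and under 4 other settings, with adjusted p up to 0.194.

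Kif3a and Kif3b, whose products form a heterotrimer with the adaptor Kifap3, were not called in any gate. Kif3a had 339 ± 40.7 CPM in Sst+Nppb sums (SD, n = 9) and was lower than the mean of the batch's other gates in 9 of 9 batches, at an adjusted p of 0.053. Kif3c made up 21.9% ± 4.18 of Kif3 UMIs in Sst+Nppb, 19.7% ± 1.83 in Gzmbl3+Lpar3 and 10.1% ± 3.56 in Trpm8 sums (SD). In the RefSeq annotation Kif3c overlaps Asxl2 on the same strand, so reads between these genes could be split by the counting.

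Kif26b, a kinesin without known motility that shapes developing tissue, was also called in Sst+Nppb sums (1.89 ± 0.54, adjusted p = 0.0139). It did not pass the F-test over all gates (adjusted p = 0.0531). It lies under the 20 CPM set for named members and is given because its values were seen. Kif26b had 0, 15.6 and 58.0 CPM as lowest, median and highest of 9 Sst+Nppb sums, against means of 1.56 CPM in Th to 9.49 CPM in Clmp sums, and was higher in 6 of 9 batches. In cells thinned to 20000 UMIs it had a UMI in 15 of 46 Sst+Nppb cells (32.6%) and in at most 16.7% of the cells of another fitted gate. Without thinning these shares were 49.1% and at most 49.2%, and 9 Sst+Nppb cells were too shallow to be thinned. Summed division markers lay between 0 and 17.3 CPM in the Sst+Nppb sums.

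**Figure D2:**
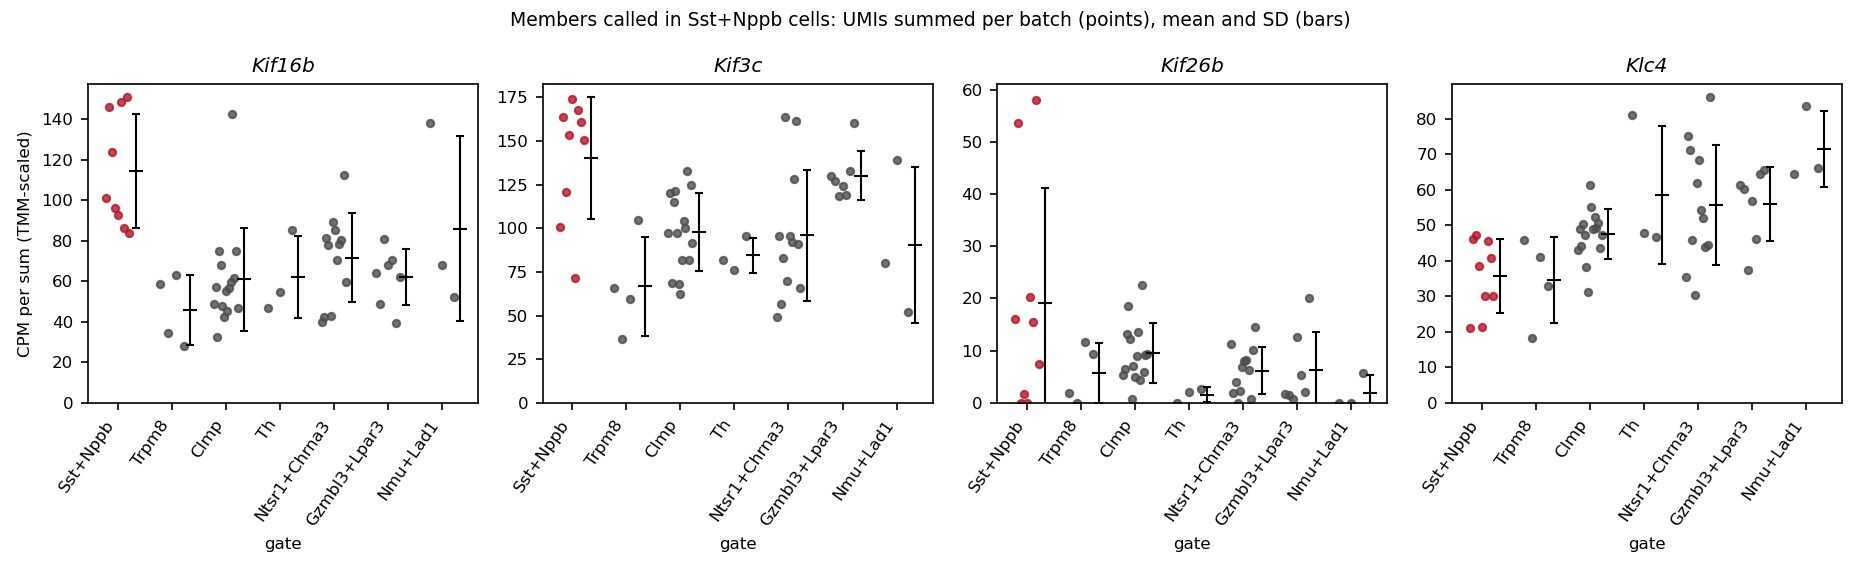
CPM of Kif16b, Kif3c, Kif26b and Klc4 in each sum of 1 batch (points), with mean and SD (bars), for Sst+Nppb (red) and the other 6 gates (grey). Kif16b sums of Sst+Nppb lie between 84.0 and 151 CPM, and all 4 Trpm8 sums lie between 28.2 and 63.0 CPM.

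The sequences before the start of Kif16b and Kif3c are shown because these 2 members rose in the same gate. They are the 250 bases before and 50 bases after the start in RefSeq's GRCr8 table, 5′ to 3′ on the gene's strand, while the counts were made on Rnor_6.0. Kif16b lies on the minus strand of chr3:150707536-150707835 and Kif3c on the plus strand of chr6:32086629-32086928. Capitals mark a GC box, the letters GGGCGG on either strand.
Kif16b: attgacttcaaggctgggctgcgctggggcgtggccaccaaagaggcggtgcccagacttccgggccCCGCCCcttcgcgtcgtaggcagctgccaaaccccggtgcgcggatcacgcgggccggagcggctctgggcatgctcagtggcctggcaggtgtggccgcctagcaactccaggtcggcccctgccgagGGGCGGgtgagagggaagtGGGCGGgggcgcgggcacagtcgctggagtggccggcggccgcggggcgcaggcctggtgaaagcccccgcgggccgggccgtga
Kif3c: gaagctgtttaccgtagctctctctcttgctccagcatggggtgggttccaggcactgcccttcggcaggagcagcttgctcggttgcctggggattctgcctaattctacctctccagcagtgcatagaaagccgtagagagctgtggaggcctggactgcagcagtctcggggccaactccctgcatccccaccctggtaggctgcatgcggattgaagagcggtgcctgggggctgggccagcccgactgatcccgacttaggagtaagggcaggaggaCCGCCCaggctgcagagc
Kif16b held 3 GC boxes, which begin 183, 54 and 35 bases before the start, and Kif3c held 1 at position 33 after it. A GC box was in 31 of the 41 members with an entry and in 34.9% of 27457 promoters of this length. G and C made up a median of 61.0% of member promoters and 52.3% of all. Neither window held a cyclic AMP response element (TGACGTCA, in 5 of 41 members and 1.91% of all) or a TATA box (TATAAA on either strand, in 5 of 41 members and 14.3% of all).

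In Clmp sums a pair of related kinesin-3 genes was called in opposite directions against the mean of the other gates, though single gates lay close to Clmp for each. Kif13a, which carries recycling endosomes and the mannose-6-phosphate receptor, rose by 0.91 ± 0.26 on the log2 scale (SE, adjusted p = 0.0144). It did not pass the F-test over all gates (adjusted p = 0.0660). Kif13a had 14.7, 26.3 and 48.0 CPM as lowest, median and highest of 15 Clmp sums and was higher in 14 of 14 batches. Its means were 25.7 CPM in Th, 19.1 CPM in Sst+Nppb, 17.4 CPM in Ntsr1+Chrna3, 16.8 CPM in Gzmbl3+Lpar3, 9.79 CPM in Nmu+Lad1 and 6.77 CPM in Trpm8 sums. Clmp and Th sums therefore lay close together, and the other 5 gates were lower on average. Without batch 26, 29 or 31 the adjusted p was between 0.0508 and 0.0627.

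Kif13b, which has been reported to carry the channel TRPV1 in sensory neurons, fell in Clmp sums by 0.80 ± 0.26 (SE, adjusted p = 0.0298) and rose in Gzmbl3+Lpar3 sums by 1.11 ± 0.32 (adjusted p = 0.0214). Kif13b had 42.4, 54.1 and 76.8 CPM as lowest, median and highest of 7 Gzmbl3+Lpar3 sums, and 4.09, 19.0 and 30.2 CPM of 15 Clmp sums. These gates did not overlap. The Trpm8 sums spread widely, with 10.98, 26.0, 57.1 and 102 CPM, as did the Th sums with 21.5, 25.3 and 97.2 CPM. Sums of Sst+Nppb ran from 3.56 to 54.96 CPM and those of Ntsr1+Chrna3 from 5.16 to 48.5 CPM. Those of Nmu+Lad1 ran from 16.2 to 27.9 CPM, inside the Clmp range. Kif13b was higher in 7 of 7 batches for Gzmbl3+Lpar3 and lower in 11 of 14 for Clmp. The Gzmbl3+Lpar3 call was lost by a narrow margin without batch 20 or 28-3 (adjusted p up to 0.0576). The Clmp call was lost without batch 28-3, 31, 32, 33 or 35, and with sums of at least 1 cell the log2 fold change was -0.59 (adjusted p = 0.180). Both Kif13 genes were too low to be tested in thinned cells. RefSeq's annotation places non-coding genes within Kif13a, Kif16b and Kif26b, and no source used here says whether the counting used strand.

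Kif22, a chromokinesin that binds chromosome arms in mitosis, was the third member to rise in Clmp sums (0.37 ± 0.09, adjusted p = 0.00276). Kif22 had 499, 627 and 884 CPM as lowest, median and highest of 15 Clmp sums and was higher in 13 of 14 batches. Its means in the other gates ran from 441 CPM in Th to 530 CPM in Nmu+Lad1 sums. In thinned cells the log2 fold change was 0.17 (adjusted p = 0.293), and with sums of at least 1 cell 0.31 (adjusted p = 0.0796). Summed division markers lay between 3.25 and 96.0 CPM in the Clmp sums, and their part in the Kif22 difference was not tested. RefSeq places a non-coding gene, LOC108349644, on the opposite strand within Kif22.

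**Figure D3:**
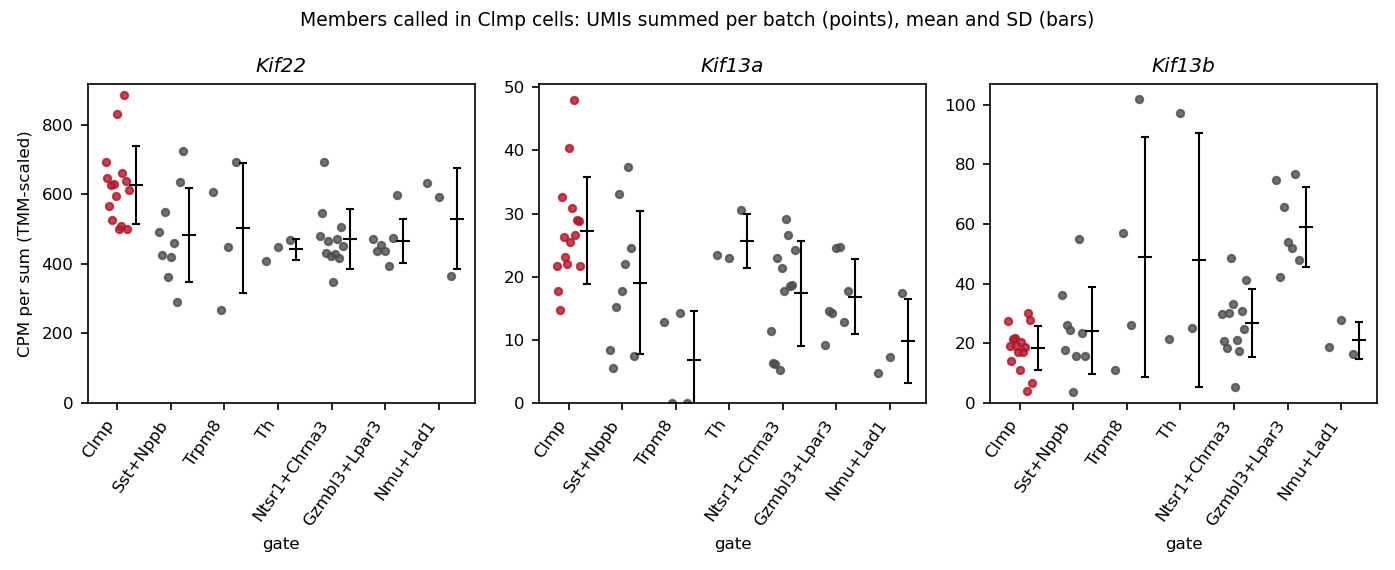
CPM of Kif22, Kif13a and Kif13b in each sum of 1 batch (points), with mean and SD (bars), for Clmp (red) and the other 6 gates (grey). Clmp sums of Kif13b end at 30.2 CPM, below all 7 Gzmbl3+Lpar3 sums, which begin at 42.4 CPM.

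The windows of Kif13a and Kif22 are shown as 2 of the members that rose in Clmp sums, in the same form. Kif13a lies on the plus strand of chr17:17972603-17972902 and Kif22 on the minus strand of chr1:191080829-191081128. Capitals mark a GC box or a CCAAT box, named for its letters CCAAT, each on either strand. They also mark the letters TTTGAA on either strand, known as the cell cycle homology region.
Kif13a: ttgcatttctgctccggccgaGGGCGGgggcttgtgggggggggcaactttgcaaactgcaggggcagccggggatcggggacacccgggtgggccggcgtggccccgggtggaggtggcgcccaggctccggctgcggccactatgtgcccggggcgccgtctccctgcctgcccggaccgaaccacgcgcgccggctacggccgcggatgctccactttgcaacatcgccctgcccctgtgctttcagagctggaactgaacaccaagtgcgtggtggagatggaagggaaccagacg
Kif22: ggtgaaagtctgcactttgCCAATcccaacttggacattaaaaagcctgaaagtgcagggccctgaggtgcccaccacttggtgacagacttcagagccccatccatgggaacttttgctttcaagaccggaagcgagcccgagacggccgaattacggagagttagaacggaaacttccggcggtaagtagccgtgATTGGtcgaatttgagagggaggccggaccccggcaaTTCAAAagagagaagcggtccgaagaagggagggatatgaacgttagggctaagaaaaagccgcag
Kif13a held 1 GC box, 229 bases before the start. Kif22 held CCAAT on the printed strand 231 bases before the start, the reversed ATTGG 53 bases before it, and the reversed TTCAAA of the cell cycle homology region 16 bases before it. That letter pattern was in 7 of 41 member promoters and in 18.1% of all. Among the 10 division-type kinesins in the table it was in 5.

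Kinesins known for cell division ranged from nearly every cell to few. Kif22 had a UMI in 965 of 967 kept cells, Kif20a, which acts in the last step of cell division, in 508, Kif2c, a depolymerising kinesin of the centromere, in 388 and Kif11, which pushes spindle poles apart, in 315. Kif18a, Kif20b, Kif15, Kif23, Kif4a and Kif24 had a UMI in 225, 190, 170, 123, 111 and 36 cells. The division markers Ccnb1, Mki67, Cdk1 and Top2a had a UMI in 194, 185, 133 and 128 cells, and 412 cells had a UMI of at least 1 of them. Kif22 was present without any of them in 553 cells, Kif20a in 228 and Kif2c in 166.

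Most of these kinesins were higher in cells with more glial RNA, by steps of different size. Kif22 had 612 CPM in the 97 kept cells with the most glial RNA (over 1762 CPM of the 9 markers) and 522 CPM in the other 870, Kif20a 15.5 and 11.6 CPM, Kif11 12.2 and 8.46 CPM and Kif2c 25.8 and 17.7 CPM. Kif18a had 8.14 CPM in the 97 glia-rich cells and 4.52 CPM in the other cells, Kif20b 10.96 and 5.24 CPM and Kif15 6.89 and 3.07 CPM. Kif24, at 0.313 and 0.446 CPM, was lower, but had only 2 UMIs in the glia-rich cells. Kif4a had 12.5 CPM in the 97 glia-rich cells and 2.71 CPM in the other cells, and Kif23 9.86 and 3.08 CPM. The division markers were likewise higher in the glia-rich cells, with Mki67 at 31.0 and 4.89 CPM and Top2a at 46.6 and 4.52 CPM. Members outside this group went both ways. Klc1 had 871 CPM in the glia-rich cells and 713 CPM in the others, and Kif5a 751 and 644 CPM. Kif1a, at 414 and 442 CPM, and Kif3a, at 337 and 374 CPM, were lower. The glia-rich cells were shallower, with a median of 34591 UMIs against 164702 in the other cells. These are pooled values of cells from many batches and were not tested.

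**Figure D4:**
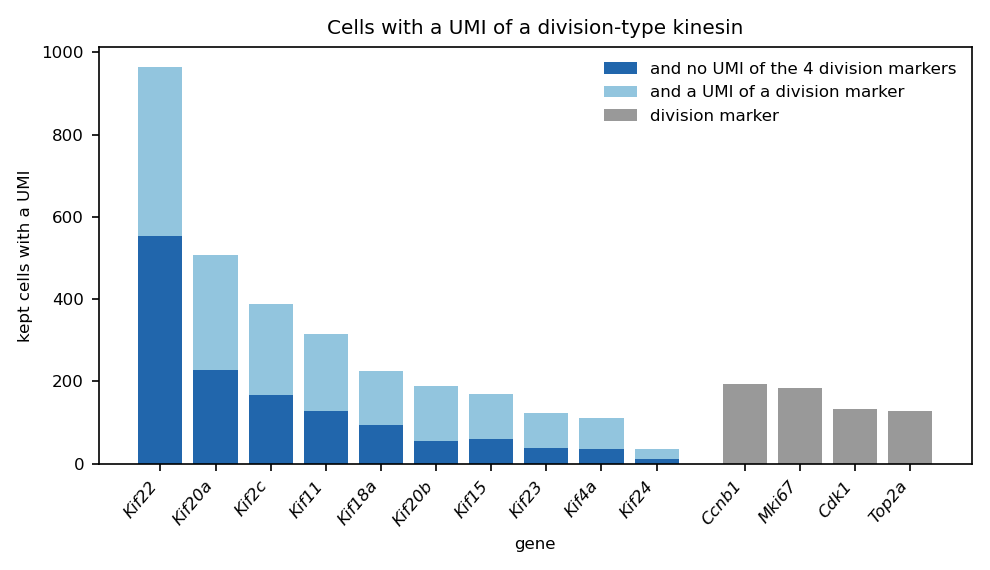
Number of the 967 kept cells with a UMI of each division-type kinesin, split by whether the cell also held a UMI of Ccnb1, Mki67, Cdk1 or Top2a, and of these 4 division markers (grey). Kif22 reaches 965 cells, 553 of them with no division marker, while no marker exceeds 194 cells.

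No member was called in Trpm8 sums, although low division-type kinesins had high fitted values there. The Trpm8 sum of batch 25 held 335 CPM of summed division markers, and the next highest of all 53 sums held 96.0 CPM. In that Trpm8 sum Kif4a was at 36.1 CPM and at 0 in the other 3, Kif23 was at 23.5 CPM and Kif2c at 67.2 CPM. Kif18a reached 48.0 CPM in the Trpm8 sum of batch 24. Without batch 25, which also takes Th and Nmu+Lad1 out of the fit, 5 of 41 members were called higher in Trpm8 sums, beside 2.12% of all genes. They were Kif5a (log2 fold change 0.75 ± 0.16, adjusted p = 0.00676), Dync1i2 (0.67 ± 0.14, adjusted p = 0.00486), Klc1 (0.59 ± 0.13), Kif3a (0.55 ± 0.13) and Dctn2 (0.50 ± 0.11), and they rest on 3 Trpm8 sums. With batch 25 Kif5a was at 0.39 (adjusted p = 0.327) and Dync1i2 at 0.30 (adjusted p = 0.414).

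Kif1a, Kif1b, Kif21a and Kif2a had no call in a single gate over all batches and sums of at least 3 cells. Kif1a, the carrier of synaptic and dense-core vesicle precursors, differed among the gates by the F-test (adjusted p = 0.0392), with means from 534 CPM in Trpm8 to 376 CPM in Sst+Nppb sums. In Sst+Nppb it was lower than the mean of the batch's other gates in 8 of 9 batches (log2 fold change -0.31, adjusted p = 0.070). Kif1b, which carries mitochondria and vesicle precursors, ran from 665 CPM in Trpm8 to 496 CPM in Gzmbl3+Lpar3 sums and did not pass (adjusted p = 0.278). Kif21a, which restrains microtubule growth, had means from 390 CPM in Clmp to 317 CPM in Nmu+Lad1 sums (adjusted p = 0.493). Kif2a, a microtubule depolymeriser known as a brake on axon branches, had means from 132 CPM in Th to 74.7 CPM in Clmp sums (adjusted p = 0.0717).

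Kif21b, the second kinesin-4 of this kind, was sparse in all gates and lowest in Gzmbl3+Lpar3 sums. It is named after its values were seen, since it lies far under 20 CPM. Kif21b had 1 UMI among 15996666 in the 7 Gzmbl3+Lpar3 sums, against 132 of 54020527 in Clmp, 55 of 11510245 in Sst+Nppb, 25 of 20046021 in Ntsr1+Chrna3 and 19 of 2309027 in Nmu+Lad1 sums. The Sst+Nppb sum of batch 29 was highest, at 31.1 CPM. Over all gated cells Kif21b had a UMI in 8.0% of Gzmbl3+Lpar3, 10.9% of Sst+Nppb and 12.0% of Clmp cells. The shares were 14.3% in Trpm8, 20.3% in Ntsr1+Chrna3, 24.0% in Th and 59.1% in Nmu+Lad1 cells. The contrast was called (adjusted p = 0.0305), and no fold is given because 1 UMI fixes none. Kif21b did not pass the F-test over all gates (adjusted p = 0.106). With sums of at least 1 cell the Gzmbl3+Lpar3 mean was 1.95 CPM, with a highest sum of 16.2 CPM (adjusted p = 0.0441).

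Dynein showed its clearest difference in the intermediate chain, the subunit that binds dynactin and cargo. Dync1i1, the form enriched in neurons, fell in Gzmbl3+Lpar3 sums by 0.91 ± 0.21 on the log2 scale (SE, adjusted p = 0.00296) and rose in Clmp sums by 0.51 ± 0.14 (adjusted p = 0.0108). Dync1i1 had 54.2, 66.7 and 85.9 CPM as lowest, median and highest of 7 Gzmbl3+Lpar3 sums, and 102, 150 and 248 CPM of 15 Clmp sums, with no overlap. The Th sums had 129, 145 and 253 CPM, the Trpm8 sums 47.0, 107, 134 and 207 CPM and the Nmu+Lad1 sums 34.5, 43.6 and 128 CPM. Sst+Nppb sums ran from 65.8 to 171 CPM and Ntsr1+Chrna3 sums from 57.2 to 175 CPM. Dync1i1 was lower in 7 of 7 batches for Gzmbl3+Lpar3 and higher in 13 of 14 for Clmp. Both calls missed the threshold in thinned cells (-0.76 with adjusted p = 0.0869, and 0.46 with adjusted p = 0.0996), where Gzmbl3+Lpar3 kept all 50 cells and Clmp 216 of 225. The Clmp call was also lost without batch 29 (0.37, adjusted p = 0.0709).

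Dync1i2, the intermediate chain present in most cells, was higher and more even. Its means ran from 751 CPM in Trpm8 to 480 CPM in Gzmbl3+Lpar3 sums, and no contrast was called (F-test adjusted p = 0.0992). Dync1i1 made up 12.3% ± 1.98 of the intermediate chain UMIs in Gzmbl3+Lpar3 sums (SD, n = 7, 9.92 to 15.4%), against 21.0% ± 4.17 in Clmp sums (n = 15, 15.8 to 31.1%). The shares themselves were not tested.

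**Figure D5:**
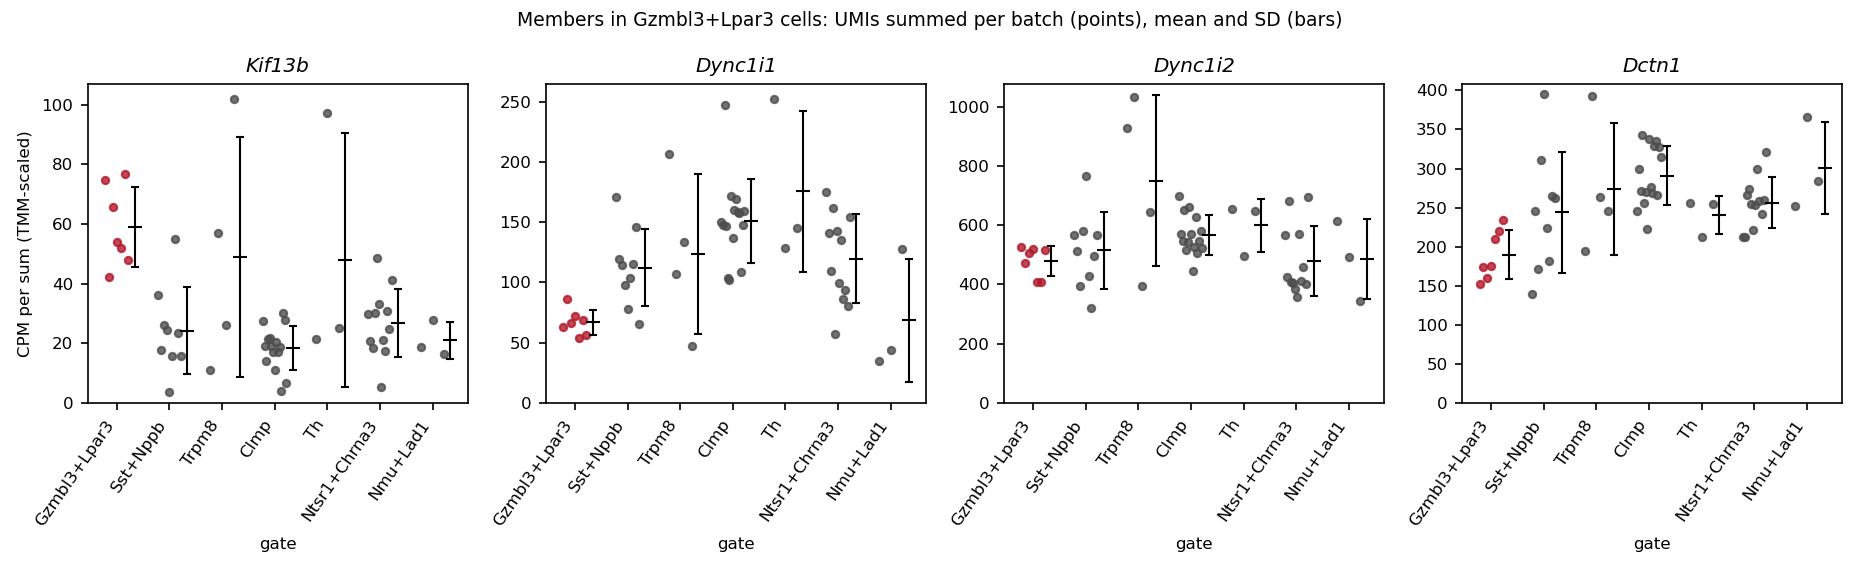
CPM of Kif13b, Dync1i1, Dync1i2 and Dctn1 in each sum of 1 batch (points), with mean and SD (bars), for Gzmbl3+Lpar3 (red) and the other 6 gates (grey). Dync1i1 sums of Gzmbl3+Lpar3 lie between 54.2 and 85.9 CPM and those of Clmp between 102 and 248 CPM, while Dync1i2 sums of these gates overlap.

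The windows of both intermediate chain genes are shown because 1 of the pair differed and the other was not called over all batches. Dync1i1 lies on the plus strand of chr4:34819191-34819490 and Dync1i2 on the plus strand of chr3:76441371-76441670. Capitals mark a GC box (GGGCGG) or a CCAAT box (CCAAT), each on either strand.
Dync1i1: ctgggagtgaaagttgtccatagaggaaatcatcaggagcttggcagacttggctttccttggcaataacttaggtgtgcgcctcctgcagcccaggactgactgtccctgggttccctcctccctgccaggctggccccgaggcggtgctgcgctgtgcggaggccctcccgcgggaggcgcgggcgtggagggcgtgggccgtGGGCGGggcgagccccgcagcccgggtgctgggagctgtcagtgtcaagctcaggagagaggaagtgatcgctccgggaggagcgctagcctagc
Dync1i2: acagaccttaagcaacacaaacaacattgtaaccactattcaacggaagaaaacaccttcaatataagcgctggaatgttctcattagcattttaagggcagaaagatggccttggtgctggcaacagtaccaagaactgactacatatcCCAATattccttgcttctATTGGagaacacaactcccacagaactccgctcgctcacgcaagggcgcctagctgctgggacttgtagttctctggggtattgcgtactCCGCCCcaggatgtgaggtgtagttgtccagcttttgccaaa
Dync1i1 held 1 GC box, 45 bases before the start, and no CCAAT. Dync1i2 held CCAAT 100 bases before the start, the reversed ATTGG 82 bases before it and a reversed GC box at position 9 after it. CCAAT was in 17 of 41 member promoters and 37.7% of all. G and C made up 66.7% of the Dync1i1 window and 47.0% of the Dync1i2 window.

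None of the other dynein genes was called in a single gate over all batches and sums of at least 3 cells. With sums of at least 1 cell Dync2h1 was called lower in Sst+Nppb (adjusted p = 0.0426), and without batch 25 Dync2li1 was called higher in Ntsr1+Chrna3 (adjusted p = 0.0384). The same Ntsr1+Chrna3 contrast called Dync1i2, Dctn2 (adjusted p = 0.0241) and Klc1 (adjusted p = 0.0328) lower. The share of all genes called in it is not given here. Dync1h1, the heavy chain that holds the motor, had means from 140 CPM in Trpm8 to 72.5 CPM in Th sums and did not pass the F-test (adjusted p = 0.189). Its spread over the 15 Clmp sums, a coefficient of variation of 35.3%, was the widest of the 20 members with at least 100 CPM there, and that of Kif5b, 9.99%, the narrowest. Of the light intermediate chains, which select cargo, Dync1li2 differed among the gates (adjusted p = 0.0471), with 490 CPM in Nmu+Lad1 and 388 CPM in Ntsr1+Chrna3 sums at the ends, and Dync1li1 did not (adjusted p = 0.351). Dync1li2 made up 80.2 to 85.1% of their UMIs as gate means. The dynein-2 genes, which serve transport inside cilia, were low and both passed the F-test. Dync2h1 (adjusted p = 0.0295) had 41.7 CPM in Th and 12.2 CPM in Sst+Nppb sums, and Dync2li1 (adjusted p = 0.0269) had 32.5 CPM in Ntsr1+Chrna3 and 17.0 CPM in Gzmbl3+Lpar3 sums. The Th sums of Dync2h1 had 18.9, 30.2 and 75.9 CPM. Without batch 34, which held the highest, their mean was 24.6 CPM, and the F-test no longer passed (adjusted p = 0.135).

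Of the 6 dynactin genes, Dctn1 alone was called in any of the 7 gate contrasts over all batches. Dctn1, whose product p150Glued joins dynein to the microtubule, fell in Gzmbl3+Lpar3 sums by 0.45 ± 0.12 on the log2 scale (SE, adjusted p = 0.0139), in 7 of 7 batches. Dctn1 had 153, 176 and 235 CPM as lowest, median and highest of 7 Gzmbl3+Lpar3 sums. The Trpm8 sums had 194, 246, 264 and 393 CPM, the Th sums 213, 254 and 255 CPM and the Nmu+Lad1 sums 253, 284 and 366 CPM. Lowest, median and highest were 223, 277 and 343 CPM in Clmp, 212, 257 and 322 CPM in Ntsr1+Chrna3 and 139, 246 and 395 CPM in Sst+Nppb sums. All Nmu+Lad1 sums therefore lay above all Gzmbl3+Lpar3 sums, and the other gates overlapped with them. The call missed the threshold without batch 24 (-0.35, adjusted p = 0.0609) and with a gate threshold of 20% of the 99th percentile (-0.41, adjusted p = 0.0785). RefSeq's annotation has Dctn1 overlap with Wdr54 on the opposite strand. Dctn2, dynamitin, came nearest among the rest (F-test adjusted p = 0.0641), with means from 613 CPM in Trpm8 to 463 CPM in Gzmbl3+Lpar3 sums.

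Only 3 cells met the Pvalb+Vsnl1 gate alone and no batch held 3 of them, so the planned comparison could not be made for that gate. In all, 10 cells met the gate, and 7 of them also met another gate. Spp1, a marker of large neurofilament neurons, was at 688 CPM over these 10 cells and at most 59.4 CPM in the other gates. The same 10 cells also had the highest levels of the glial markers Apoe (200.5 CPM, at most 83.3 CPM in the other gates) and Sox10 (22.3 and at most 4.64 CPM). They were highest as well in the division markers Top2a (66.8 and at most 35.6 CPM) and Cdk1 (30.2 and at most 8.53 CPM). After the data were seen, sums of at least 1 cell and 50000 UMIs were fitted. All 10 cells that met the gate were kept in it, although 6 of them also met the Clmp gate. This gave 7 Pvalb+Vsnl1 sums of 76946 to 623035 UMIs and at most 3 cells each among 97 sums. Those of batches 23, 28-3, 29, 32 and 35 were 1 cell each, so single cells serve as replicates there. In this fit 39 members were tested among 10703 genes (10690 without the gate genes). It called 4 of the 39 members (10.3%), 1 higher and 3 lower, beside 11.3% of all genes (4.97% higher, 6.37% lower). Summed over the 9 glial markers these 7 sums held 447 to 1534 CPM and those of the other gates 284 to 1997 CPM. Summed over the 4 division markers they held 0 to 311 CPM, with a median of 18.6 CPM, and the other gates had medians of 2.82 to 13.9 CPM. The part of these markers in the calls was not tested. With so few cells a sum, the spread is wide and each call stands near the threshold.

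Kif3b had 86.0 ± 36.4 CPM in the Pvalb+Vsnl1 sums (SD, n = 7) and gate means of 128 to 175 CPM elsewhere (-0.73 ± 0.24, adjusted p = 0.0341). Kif16b, the member raised in Sst+Nppb, had 39.1 ± 21.6 CPM and gate means of 61.1 to 101 CPM elsewhere (-0.95 ± 0.33, adjusted p = 0.0454). Kif13b had 10.2 ± 13.4 CPM, with a lowest sum of 0, and gate means of 18.3 to 64.7 CPM elsewhere (-1.46 ± 0.50, adjusted p = 0.0435). Each of the 3 was lower than the mean of the batch's other gates in 6 of 7 batches. Kif21b was called higher (adjusted p = 0.0487) with a median of 0 and a highest sum of 57.5 CPM, and it was higher in 3 of 7 batches and lower in 4. The same fit called 3 of 39 members in Nmu+Lad1, beside 11.9% of all genes, and 1 in Th, beside 1.97%. Sums of both gates held 1 to 4 cells, and several were a single cell. Dync1i1 fell in 12 Nmu+Lad1 sums, which had 61.9 ± 41.7 CPM, against gate means of 62.6 to 151 CPM elsewhere (-0.95 ± 0.21, adjusted p = 0.000881). Kif2a rose in 11 Th sums, which had 116 ± 40.5 CPM, against gate means of 64.8 to 98.0 CPM elsewhere (0.56 ± 0.15, adjusted p = 0.0288).

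Motors act through adaptors and regulators, and 54 such partners were listed with the members, of which 50 were tested. The F-test over all gates passed for 15 of the 50 (30.0%), beside 29.0% of all genes. Single contrasts called 2 in Sst+Nppb (both lower), 5 in Clmp (4 higher, 1 lower) and 5 in Gzmbl3+Lpar3 (1 higher, 4 lower). These are 4%, 10% and 10% of the 50, beside 12.4%, 11.9% and 8.92% of all genes. None was called in the other 4 gates, where 12 in Trpm8, 4 in Th, 5 in Ntsr1+Chrna3 and 8 in Nmu+Lad1 had an unadjusted p under 0.05. Their median log2 fold changes were -0.05 in Sst+Nppb, 0.12 in Clmp and -0.11 in Gzmbl3+Lpar3, beside 0.00, 0.07 and 0.05 over all genes.

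In Gzmbl3+Lpar3 sums Snph, syntaphilin, which docks mitochondria on axonal microtubules, had 17.0 ± 11.3 CPM (SD, n = 7), against gate means of 30.7 to 74.6 CPM elsewhere (log2 fold change -1.32 ± 0.33, adjusted p = 0.00632). Kifbp, a protein that binds kinesin motor domains, had 27.1 ± 9.42 CPM there, against 41.9 to 79.7 CPM elsewhere (-0.94 ± 0.24, adjusted p = 0.00842). Mapk8ip1, the kinesin-1 adaptor JIP1, fell in Gzmbl3+Lpar3 sums (-0.55 ± 0.18, adjusted p = 0.0429) and in Sst+Nppb sums (-0.68 ± 0.16, adjusted p = 0.00264). Htt, huntingtin, a scaffold for both motor directions, also fell in Sst+Nppb sums (-0.55 ± 0.19, adjusted p = 0.049).

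Fez2, of the family of kinesin-1 adaptors around Fez1, had 174 ± 31.6 CPM in Gzmbl3+Lpar3 sums (0.50 ± 0.12, adjusted p = 0.0035). It had 93.1 ± 13.5 CPM in Clmp sums, where it was lower in 14 of 14 batches (-0.61 ± 0.09, adjusted p = 2.21e-06). In Clmp sums the minus-end motor gene Kifc3 rose, with 8.78 ± 4.55 CPM there and gate means of 0.557 to 5.81 CPM elsewhere (1.96 ± 0.50, adjusted p = 0.00527). The dynactin filament gene Actr1b (0.32 ± 0.07, adjusted p = 0.0013) and the dynein light chain Dynlt3 (0.30 ± 0.07, adjusted p = 0.00293) rose there by smaller steps.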

How the data were processed

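Single neurons were measured, and each deposited file holds the UMI counts of 1 batch, with genes in rows and cells in columns. Per the submitters' processing notes, the authors used UMI-tools, STAR, featureCounts from Subread and SAMtools with the build Rnor_6.0. Versions, order and strand setting are not given in the sources used here. Used batches held 3812280 to 26065847 UMIs, and kept cells a median of 139374 UMIs and 8302 genes. No cell name was shared between used batches.

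A cell entered a gate if each gate gene had at least 2 UMIs and at least 20 CPM and 10% of the gene's 99th percentile over kept cells. Cells that met several gates entered none. Counts were summed per batch and gate (at least 3 cells) and fitted in edgeR 4.0.16 (R 4.3.3) with TMM factors, filterByExpr at a minimum count of 10, gate and batch terms and the robust quasi-likelihood test. Each gate with at least 3 sums was set against the mean of the other gates, and p-values were adjusted by Benjamini-Hochberg over all genes tested, with the gate genes left out of the counts of calls. SEs were derived from each log2 fold change and the square root of its F. Batch, which holds sums of several gates, served as the replicate block. limma 3.58.1 and DESeq2 1.42.0 were alternatives, as were the settings listed in the closing section. The code was tested on simulated data.

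Named in full are, per contrast and direction, up to 3 called members with the largest fold change and at least 20 CPM, and 12 fixed members that include Kif1a, Kif3a and the Kif5 genes. Other members are named for the F-test, their spread or their values, after these were seen. The members, the partner list and the tests were chosen with earlier results of these data known. Promoter sequences come from a RefSeq table of GRCr8, in which 41 of the 47 members had an entry. Proteins were not used here.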

Additional observations from a re-analysis of the deposited data

Results flagged for a closer look

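In groups of 4 to 10 sums, 54 combinations of a fixed or named member and a gate were searched for a single sum far from the rest by Dixon's criterion. It picked out 5, and chance alone gives about 1 in 20, or 2.7 of 54. In the Sst+Nppb sum of batch 28-1, Kif1b was at 1074 CPM, and the next of the 9 sums was at 649 CPM. Kif5b was at 747 CPM in the same Sst+Nppb sum, with the next at 560 CPM. In the Gzmbl3+Lpar3 sum of batch 32, Kif22 was at 597 CPM, with the next of 7 sums at 474 CPM. Kif3c was at 160 CPM in the same Gzmbl3+Lpar3 sum, with the next at 133 CPM. Dync1h1 was at 38.1 CPM in the Gzmbl3+Lpar3 sum of batch 24, the only low one of the 5, and the next was at 81.3 CPM. Without batch 28-1 or 32, Kif3c was still called in Gzmbl3+Lpar3. It was not called without batch 24.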

How the results depend on the processing

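No named call reversed its direction under any alternative that could be run, and all 11 kept their call with DESeq2, limma voom and DESeq2's size factors. The counts of called members moved more. They are given here without the share of all genes called under the same setting, so they are not compared with other genes. For Clmp (4 called) they were 16 with at least 5 cells per sum, 13 and 9 with gates at 20% and 5% of the 99th percentile, 8 with limma voom, 2 with sums of at least 1 cell and 0 in cells thinned to 20000 UMIs. For Sst+Nppb (4 called) they were 7 with DESeq2 and 7 with limma voom, 8 without the 97 glia-rich cells, and 1 each with at least 5 cells per sum and in thinned cells. For Gzmbl3+Lpar3 (5 called) they were 8 with DESeq2, 11 with limma voom and 2 with the gate at 20%. For Trpm8 (0 called) they were 3 without the replicate block, 2 with cells of several gates put in the strongest, and 1 each with no filter on low counts and without the glia-rich cells. For Th (0 called) they were 2 with no filter and 1 with sums of at least 1 cell, and for Nmu+Lad1 (0 called) 1 and 3. The F-test over all gates (14 called) passed for 8 with the gate at 20% and 6 in thinned cells. The cause of these moves was not tested. Leaving out each batch in turn gave 2 to 5 calls in Clmp (2 without batch 31), 2 to 6 in Sst+Nppb (2 without batch 20), 2 to 8 in Gzmbl3+Lpar3 (3 without batch 20, 2 without batch 28-3, 8 without batch 25), 0 to 5 in Trpm8, 0 to 4 in Ntsr1+Chrna3 (both highest without batch 25), 0 to 0 in Th and in Nmu+Lad1, and 6 to 16 in the F-test (6 without batch 28-3, 7 without 31, 9 without 20 and 9 without 29).

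Without the replicate block, 10 of the 11 named calls held, and Kif3c in Gzmbl3+Lpar3 was at 0.47 (adjusted p = 0.0514). Gates with few sums dropped out of some fits: Th, Trpm8 and Nmu+Lad1 with at least 5 cells per sum, Th and Trpm8 with the gate at 20%, Trpm8 with the gate at 5%, Th and Nmu+Lad1 without batch 25, Nmu+Lad1 without batch 26 or 29, and Th without batch 33 or 34. With no filter on low counts the median log2 fold change of all genes in Clmp was 0.14, and in the Pvalb+Vsnl1 sums of at least 1 cell it was -0.11. The gates Th, Trpm8 and Nmu+Lad1 rest on 3 or 4 sums, which limits what could be called there.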
